A study of Mus musculus with 2 samples.

Results

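Zbtb16-positive NKT-like T cells of the mouse spleen were selected on raw UMI counts (UMIs, unique molecular identifiers, each standing for 1 captured RNA molecule). A cell was taken with at least 1 UMI of Cd3e, at least 1 UMI of Zbtb16 and 0 UMIs of Trdc, Fcer1g, Cd8b1, Foxp3, Cd79a and Mki67. Barcodes were used if 500 or more genes were seen in them and less than 10% of their UMIs were mitochondrial, which kept 7660 cells of the Prmt5 CKO library and 6712 of the control library. The rule found 2 cells in the Prmt5 CKO library and 49 in the control library, 51 of 14372 kept cells in all. The 8 genes of the rule are measured values and chose the cells, so their levels are a description and no result.

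The samples were CD3+ spleen T cells of C57BL/6 mice in which CD4-Cre, active from the CD4-expressing stage of thymic development, deletes a floxed gene for PRMT5, an enzyme that symmetrically dimethylates arginine, set beside control mice. The genotype entry of both samples reads CD4-Cre+ PRMT5fl/fl, and the groups were taken from the sample titles, which name a Prmt5-CKO and a control sample. Cells of 3 mice per group entered 1 library per group by the 10x Genomics 3′ method, and no map from cells to mice was given, so each group is 1 sample. Age, sex and the control's own genotype are not given in the labels used here. There is therefore no test across replicates, every interval below is an exact 95% interval that covers counting error only, and genotype and library cannot be told apart.

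Natural killer T cells are αβ T cells that recognise lipids on the CD1d molecule and leave the thymus already poised to make cytokines. Zbtb16 encodes PLZF, the zinc-finger transcription factor that sets this poised state, and some γδ T cells and innate lymphoid precursors carry it too. Most mouse NKT cells share an α chain joined from the V segment Trav11 and the J segment Traj18, and they divide into T-bet-expressing NKT1, GATA3-high and IL-4-producing NKT2, and IL-17-producing NKT17 types.

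The receptor segments of this α chain are shown because they are the marker of NKT identity that the selection did not use. They are the last 60 bases of Trav11 (chr14:53519303-53519859, plus strand) and all 66 bases of Traj18 (chr14:54200777-54200842, plus strand), read 5′ to 3′ from GENCODE vM21 on mm10. Capitals mark the 12 bases of each segment that face the joint. As germline sequence they show neither the bases trimmed nor those added when the segments join.
Trav11: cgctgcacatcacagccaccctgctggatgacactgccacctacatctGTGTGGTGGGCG
Traj18: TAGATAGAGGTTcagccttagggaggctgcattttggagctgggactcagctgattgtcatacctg
The δ constant gene Trdc (chr14:54142851-54148868) lies between the positions of both segments, and joining Trav11 to Traj18 removes the DNA in between from that chromosome. Trav11 had a UMI in 7 of the 49 control cells (14.3%, interval 5.94 to 27.2), with 9 UMIs in all, and in 5 of the 3187 control cells that met every other step of the rule but had 0 Zbtb16 UMIs (0.157%, 0.0510 to 0.366). These 3187 cells, called Zbtb16-zero below, serve as the comparison within the library. The share of cells with a UMI of any of the 128 listed Trav segments was 24.5% in the gated and 24.0% in the Zbtb16-zero control cells, so Trav11 differed where V segments as a whole were seen about equally often. Traj18 had 0 UMIs in either library. In a 3′ method few reads reach the V region, so a cell without a Trav11 UMI may still carry it. Of β chain segments, Trbv1 and Trbv13-1 each had a UMI in 2 of the 49 cells, and Trbv13-2 and Trbv29 in 0 of 49. Any Trbv segment was seen in 5 of 49 cells (10.2%), so these zeros do not limit how many cells use them.

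Prmt5 (chr14:54507187-54517525, minus strand), the targeted gene, had 0 UMIs in both CKO cells and 6 UMIs in 5 of the 49 control cells (12.9 CPM, a gene's UMIs scaled to the usual counts-per-total unit within the summed cells). In Zbtb16-zero cells it stood at 3.60 CPM in the CKO and 12.4 CPM in the control library. With 12845 UMIs in the 2 CKO cells, a loss of Prmt5 in them was not detectable. A 3′ method also counts transcripts whose deleted exons lie elsewhere in the gene. Lck, the receptor-proximal kinase, had 5 and 15 UMIs in the CKO cells, 1557 CPM in sum, against 432 CPM in the gated control cells. In Zbtb16-zero cells it was at 1125 CPM in the CKO and 457 CPM in the control library.

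The Prmt5 CKO library held so few of these cells that their counts precede any level. Zbtb16 (chr9:48654297-48836222, minus strand) had a UMI in 61 CKO cells (0.796% of kept cells, 0.610 to 1.02) and in 80 control cells (1.19%, 0.946 to 1.48), and all of them also held Cd3e. The ratio of CKO over control was 0.668 (0.471 to 0.944). The makeup of these cells differed far more than their number. Of the 61 CKO cells 55 held Trdc (90.2%, 79.8 to 96.3), against 11 of the 80 control cells (13.8%, 7.07 to 23.3). After all exclusions 2 CKO cells remained, 0.0261% of kept cells (0.00316 to 0.0943), and 49 control cells, 0.730% (0.541 to 0.964). The ratio was 0.0358 (0.00421 to 0.136), or 28.0-fold lower in the CKO library.

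**Figure D1:**
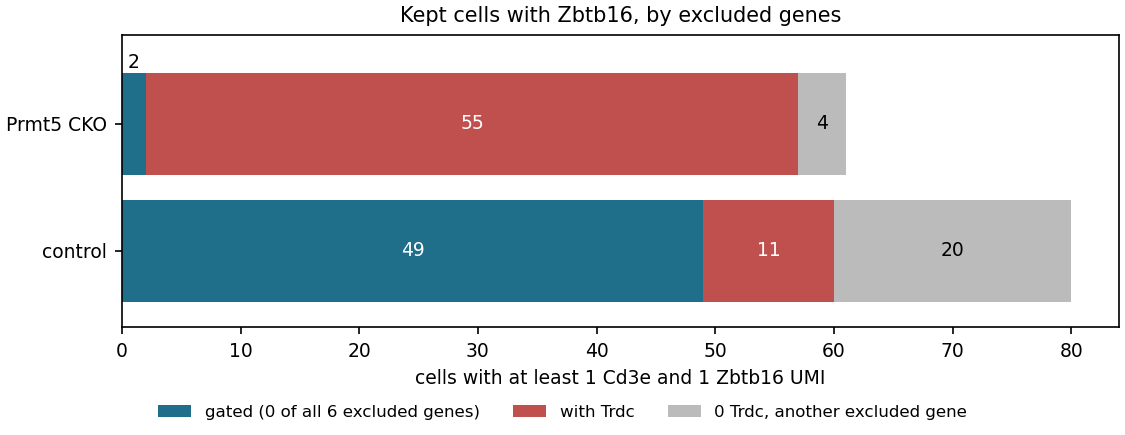
Kept cells with at least 1 Cd3e and 1 Zbtb16 UMI in each library (horizontal axis, number of cells), divided into gated cells, cells with Trdc, and cells with 0 Trdc but another excluded gene. The CKO bar is made up of 2, 55 and 4 cells and the control bar of 49, 11 and 20 cells.

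The ratio was also taken with the Trdc step left out or kept alone, and the other exclusions were not left out singly. Without the Trdc step the ratio was 0.661 (0.427 to 1.02, 40 CKO and 53 control cells), and with Trdc as the only exclusion it was 0.0762 (0.0270 to 0.175, 6 and 69 cells). Cells with both Zbtb16 and Trdc went the other way, with 0.718% of kept CKO cells (0.541 to 0.934) and 0.164% of kept control cells (0.0818 to 0.293), a ratio of 4.38 (2.27 to 9.28). Trdc itself was in 11.6% of all Cd3e cells of the CKO library and 3.83% of those of the control library. In the Zbtb16 and Trdc cells Trdc was seldom borderline: its median was 11 UMIs in the CKO cells and 10 in the control cells, and 2 and 1 of these cells held a single UMI. Allowing up to 2 Trdc UMIs left 5 CKO and 49 control cells, a ratio of 0.0894 (0.0278 to 0.223). Among cells with a Y-linked UMI alone the counts were 0 of 2505 and 13 of 1848.

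A Zbtb16 UMI in a cell can also come from free RNA. B cells, called here by Cd79a without Cd3e and expected to lack Zbtb16, gave 0 of 55 CKO cells and 0 of 51 control cells, which allows up to 5.45% and 5.88% by a floor of 3 cells. Among cells with Cd8b1 it was seen in 8 of 2337 (0.342%, CKO) and 10 of 2557 (0.391%, control). Of these cells 2 and 7 held none of the other excluded genes, and the rest held a further one. How much of this was free RNA was not tested. In the gate without its Zbtb16 step Zbtb16 was in 49 of 3236 control cells (1.51%, 1.122 to 1.997) and 2 of 3844 CKO cells (0.0520%, 0.00630 to 0.188). Whether the UMIs of the 2 CKO cells are their own or free RNA was not tested.

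Gated control cells were deeper than their comparison cells, with a median of 9093 UMIs (3793 to 18742) against 5755 for Zbtb16-zero control cells. Low transcripts are more often seen in deep cells, and 10 of the 49 were among the 6% of kept control cells with the most UMIs. The 2 CKO cells held 7331 and 5514 UMIs. Expected over draws of 2000 UMIs from each cell, the gate gave a ratio of 0.111, and over draws of 1000 UMIs a ratio of 0.204. The draws thin the excluded genes too, so a Zbtb16 cell can lose its Trdc UMIs and enter the gate. The part of this in the higher ratios was not tested. Without the deepest 6% of cells in each library it was 0.0449 (2 and 39 cells). Doublets were not called. Across the libraries 11 barcodes were shared.

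The values at the threshold were these. Zbtb16 had 1 UMI in 22 control cells, 2 UMIs in 12, 3 in 7, 4 in 5, and 7, 8 and 11 UMIs in 1 cell each, while the 2 CKO cells held 1 and 2. Just outside stood the 3187 Zbtb16-zero control cells. Cells just inside, with 1 Zbtb16 UMI, already differed from those at 0: Cxcr6 was in 19 of these 22 cells (86.4%) against 2.92% at 0 UMIs, and in 23 of the 27 cells with 2 or more (85.2%).

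The markers given with the label were, besides Zbtb16, Klrb1c, Tmem176a, Tmem176b and Xcl1. Of the 49 control cells 23 held at least 1 of these 4 genes (46.9%, 32.5 to 61.7), against 129 of 3187 Zbtb16-zero cells (4.05%). Klrb1c, which encodes the NK1.1 receptor, was in 12 gated cells (24.5%, 13.3 to 38.9) and in 1.32% of Zbtb16-zero cells. Xcl1, a chemokine that draws dendritic cells, was in 16 (32.7%, 19.95 to 47.5) and in 1.41%. Tmem176a, a membrane protein of IL-17-producing lymphocytes, was in 5 (10.2%, 3.397 to 22.2) and in 1.26%. Tmem176b did not mark the control cells: its 10 UMIs all lay in 1 cell (2.04%, against 1.41% of Zbtb16-zero cells). Against Zbtb16-zero cells 3 of the 4 markers thus stood higher by share of cells, and Tmem176b did so only through that cell. The cells and their markers were chosen with earlier results of these data known. These shares are therefore a description and no separate support for the label. In the 11 control cells with Zbtb16 and Trdc, Klrb1c was in 4 (36.4%), Xcl1 in 3 (27.3%), and Tmem176a and Tmem176b in 6 each (54.5%). By share of cells Klrb1c and Xcl1 thus do not tell the gated cells from Zbtb16 cells with Trdc. Tmem176a and Tmem176b were more frequent in the cells with Trdc (interval 23.4 to 83.25 for each) than in the gated cells. Both Tmem176 genes overlap on opposite strands of chr6.

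Thinned to 2000 UMIs per cell, the expected shares fell but kept their order. Cxcr6 went to 50.9% against 1.74%, Id2 to 85.6% against 21.3%, Xcl1 to 16.8% against 0.740% and Klrb1c to 9.21% against 0.697%. Ccr7 went to 9.37% against 39.3%. The order of gated and Zbtb16-zero cells was thus the same at equal depth for these 5 genes.

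Receptors and regulators of experienced T cells were frequent in the 49 cells, and the naive receptor Ccr7 was not. Id2, an inhibitor of E proteins that PLZF-expressing lymphocytes share, was in 48 of 49 cells, with 0 to 33 UMIs and a median of 12 per cell. Cxcr6, the receptor for CXCL16 that holds NKT cells in liver and spleen, was in 42 cells, with 0 to 11 UMIs and a median of 4. Icos, a costimulatory receptor, was in 36 cells (73.5%, against 25.6% of Zbtb16-zero cells). Il2rb, the IL-2 and IL-15 receptor β chain, was in 33 (67.3% against 11.3%), and the memory marker Cd44 in 26 (53.1% against 10.0%). All of Cxcr6, Id2 and Icos were seen in 31 of the 49 cells. Only 14 cells held Ccr7 (28.6% against 68.6%), a chemokine receptor that takes naive cells into lymph nodes.

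**Figure D2:**
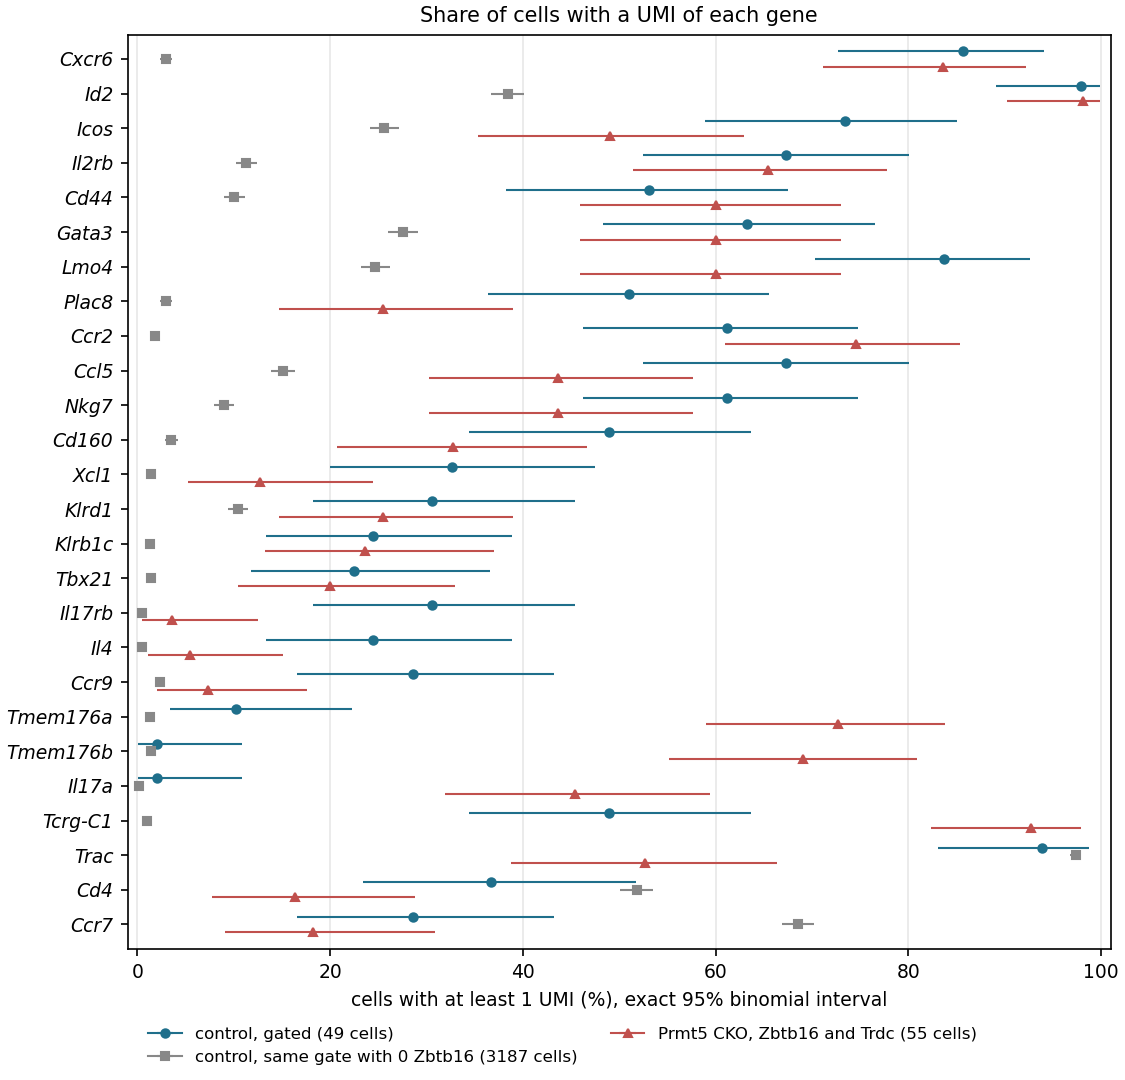
Percent of cells with at least 1 UMI of each gene (horizontal axis) in the 49 gated control cells, the 3187 Zbtb16-zero control cells and the 55 Prmt5 CKO cells with Zbtb16 and Trdc, with exact 95% binomial intervals. Cxcr6 stands at 85.7% in gated and 2.92% in Zbtb16-zero control cells, and Tmem176b at 2.04% in gated control cells and 69.1% in the CKO cells with Zbtb16 and Trdc.

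UMIs were then summed over the gated and over the Zbtb16-zero control cells and scaled to CPM within each sum. A gene counted as measured with 10 UMIs in the gated sum, or 10 expected there from the Zbtb16-zero level. Of 5291 measured genes 480 were at least 2-fold higher in the gated cells (9.07%) and 189 at least 2-fold lower (3.57%). Of the measured genes 809 reached the minimum only through the gated cells and so had to be higher. Among the other 4482, 157 were at least 2-fold higher (3.50%) and 189 lower (4.22%), and the median log2 ratio was 0.10. These percentages are the background for the lists below, for which the members that pass from the Zbtb16-zero side are given beside the full counts.

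The 15 highest genes by log2 ratio in the control library alone all reached 10 UMIs only through the gated cells and so had to be higher. Their values are a description. That ranking was chosen after the CKO library was seen to hold 2 cells. Cxcr6 was at 404 CPM in the gated and 14.98 CPM in the Zbtb16-zero cells, a log2 ratio of 4.75 (4.48 to 5.02). Beside the Zbtb16-zero cells that hold Cd44, a comparison added after seeing the data, it was 2.47. Ccr2, a receptor for inflammatory chemokines, was at 208 and 5.77 CPM (log2 5.17, 4.77 to 5.58) and was seen in 30 cells. Ccr9, a gut-homing receptor, was at 116 and 5.46 CPM (log2 4.41) in 14 cells.

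Il17rb, the IL-25 receptor, was at 51.6 and 0.832 CPM, a log2 ratio of 5.95 (4.98 to 6.96), and was in 15 of 49 gated and 15 of 3187 Zbtb16-zero cells. Chdh, choline dehydrogenase, stood beside it with 40.8 and 0.572 CPM (log2 6.16) in 10 cells. The genes neighbour each other on chr14 on opposite strands, with Il17rb ending at 30008896 and Chdh starting at 30009023. Il4, the type 2 cytokine, was at 38.7 and 1.56 CPM (log2 4.63, 3.70 to 5.52), with at most 3 UMIs in a cell, and Plac8 at 226 and 10.4 CPM (log2 4.44). Lgals3 (galectin 3) was in 11 cells (log2 5.15) and Atp8a2, a phospholipid flippase, in 20 (log2 4.39).

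Beside Zbtb16-zero cells with Cd44 these ratios were smaller, at 4.001 for Il17rb, 2.49 for Il4, 2.21 for Plac8, 3.43 for Ccr2 and 3.39 for Ccr9 on the log2 scale. Some of the leading ratios rest on few cells. Ccr10, a skin-homing receptor, had the highest ratio (log2 7.63, 6.21 to 9.38), but 17 of its 24 UMIs lay in 1 of 3 cells. Pxdc1 had 8 of 11 UMIs in 1 of 2 cells. Plekhg3, Rbpms, Serpina3f and Adgrg5 had 10 to 14 UMIs in 8 to 10 cells each, and log2 ratios of 4.60 to 5.83.

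Among the lower genes Dapl1 was at 38.7 CPM in the gated and 357 CPM in the Zbtb16-zero cells, 9.22-fold lower, and 13 of its 18 UMIs lay in 1 cell. Itm2a, a membrane protein induced at thymic selection, was at 10.7 and 142 CPM (13.2-fold lower). St8sia1, a ganglioside sialyltransferase, and Sox4, a transcription factor of early T cells, had 1 and 2 UMIs in the gated cells, against 42.2 and 65.8 CPM in the Zbtb16-zero cells. Tnfsf8, Cd55, Tmem65, Rab3ip and Fam169b followed, with 1 to 6 UMIs each and log2 ratios of -3.91 to -2.98.

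**Figure D3:**
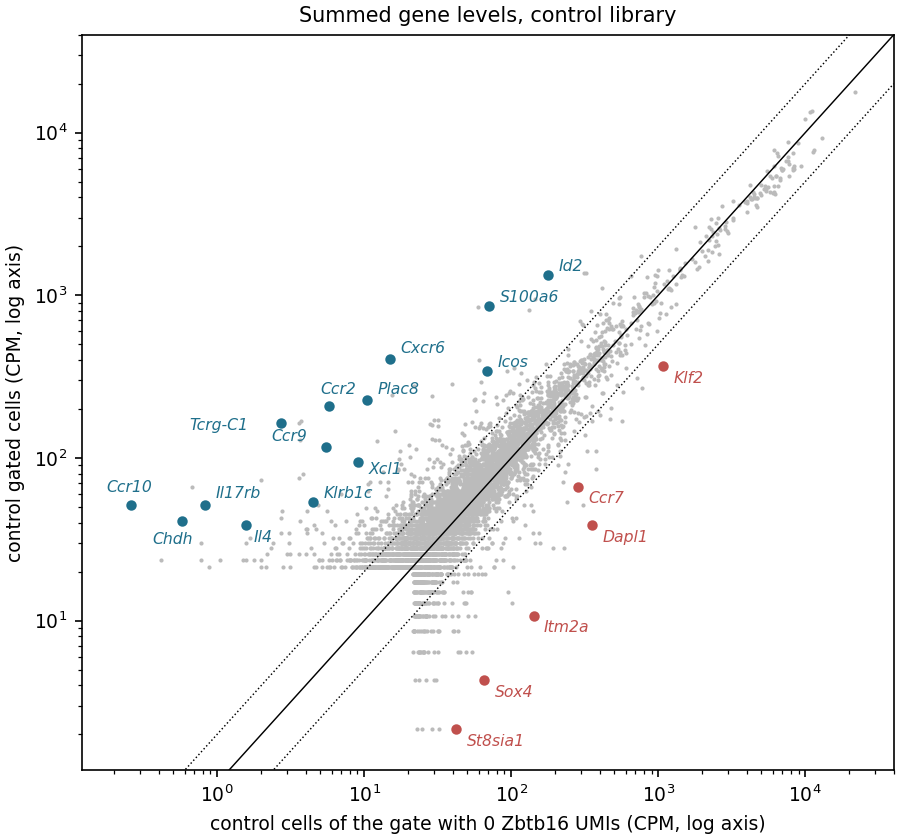
CPM of each measured gene with a UMI in both sums, in Zbtb16-zero control cells (horizontal log axis) and gated control cells (vertical log axis). The solid line marks equal levels and the dotted lines 2-fold differences. Cxcr6 lies at 404 against 14.98 CPM above the lines, and Dapl1 at 38.7 against 357 CPM below them.

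The lists for NKT cells differed among themselves. Of 20 NKT and PLZF-lineage genes all were measured, 15 were at least 2-fold higher and 0 lower, with a median log2 ratio of 2.78 beside 0.19 over all measured genes. Of the 11 that passed from the Zbtb16-zero side, 6 were higher, with a median of 1.83. Slamf6 and Sh2d1a, whose products pass the SLAM signal that NKT selection needs, had log2 ratios of 0.58 (0.32 to 0.84) and 0.94 (0.64 to 1.22). Slamf1 (-0.86, -2.31 to 0.28) was the only member of the list below 0. Of 13 genes for selection of semi-invariant cells, 10 were measured and 0 were 2-fold apart in either direction. The NKT and PLZF-lineage list summed to 4559 CPM in gated control cells and 4727 CPM in CKO cells with Zbtb16 and Trdc. For NKT1-type genes the sums were 3292 and 4086 CPM, and for NKT17-type genes 2106 and 4931 CPM. NKT2-type genes went the other way, at 2318 and 1544 CPM. Apart from NKT2-type genes, these summed levels were thus not particular to the gated cells, though the compared cells come from different libraries.

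Of 20 NKT1-type genes 15 were measured and 14 were at least 2-fold higher (median 2.70). All 7 that passed from the Zbtb16-zero side were higher. Beside Zbtb16-zero cells with Cd44, Ccl5 (log2 0.72) was no longer 2-fold higher, and Nkg7 was at 1.10 and Il2rb at 1.02. Ccl5, a chemokine of effector cells, had the most UMIs, 1373 CPM against 322 (log2 2.09, 1.97 to 2.21), and was in 33 cells with 0 to 54 UMIs. Nkg7, a granule membrane protein, was in 30 cells (log2 2.73) and Cd160, an inhibitory receptor, in 24 (log2 3.97). Tbx21, which encodes T-bet, was in 11 cells with at most 3 UMIs (22.4% against 1.38%, log2 3.67). Ifng was in 12 cells (log2 2.70). Of the granzymes, Gzma and Gzmb had 1 UMI each, and Gzmk and Gzmm 0, so the cytotoxic list, with 5 of 6 measured members higher (3 of 3 from the Zbtb16-zero side), stood on Nkg7, Ctsw, Srgn, Serpinb9 and Serpinb6b.

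Of 14 NKT2-type genes 13 were measured, 7 were higher and 3 lower (median 1.40). On the Zbtb16-zero side 8 passed, with 2 higher, 3 lower and a median of 0.07. The higher genes were Il17rb, Il4, Plac8, Ccr9, Ccr4, Icos and Gata3. Gata3, the transcription factor of type 2 cells, was in 31 cells (63.3% against 27.6%) at 163 and 61.8 CPM (log2 1.40, 1.05 to 1.74), and at 0.85 beside Zbtb16-zero cells with Cd44. The lower genes were Cd4, Il4ra and Il6ra. Cd4 was in 18 of 49 cells (36.7%, 23.4 to 51.7, against 51.8%) at 47.3 and 140 CPM (log2 -1.57, -2.24 to -0.97).

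Transcripts of the NKT17 type were sparse in the control cells. Il17a had 11 UMIs, all in 1 cell, and Il23r had 1. Ccr6, Il1r1, Il17f and Il17re had 0. Of 18 listed genes 8 were measured and 6 were higher, and 3 of the 5 that passed from the Zbtb16-zero side were. The higher genes included Rora (log2 3.67, in 34 cells), Maf (log2 1.8, in 29 cells) and Ramp1 (1.51), which many non-IL-17 cells also express, and Il17a and Tmem176b, each from 1 cell.

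Of 12 naive T cell genes 10 were at least 2-fold lower and 0 higher, with a median of -1.94. All 12 passed from the Zbtb16-zero side. Il7r, which sustains both naive and memory cells, was the exception above 0 (log2 0.35). Of 16 antigen-experienced and migratory genes 10 of 15 measured were higher and 2 lower (8 and 2 of 13 from the Zbtb16-zero side), S100a6 (862 against 70.9 CPM) and Lgals1 (950 against 145 CPM) being higher, and Itga4 and Ly6c1 lower. All 7 measured killer-lectin-like and NK receptors were higher, 5 of them having passed only through the gated cells. Lineage transcription factors gave 9 higher and 3 lower of 20 measured (7 and 3 of 18 from the Zbtb16-zero side), and interferon response genes 6 higher and 0 lower of 22 (3 and 0 of 18). T cell receptor signalling genes gave 1 higher (Icos) and 1 lower (Cd4) of 25, a share near the background. Lmo4, a LIM-domain transcriptional regulator outside the lists, was in 41 cells at 844 and 59.7 CPM (log2 3.82); it was singled out after its values were seen.

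Transcripts of the γ chain locus, a marker of γδ T cells, ran through the αβ profile of the 49 cells. Tcrg-C1 was in 24 cells (48.98%, 34.4 to 63.7, against 0.941% of Zbtb16-zero cells), Tcrg-C2 in 21 and Tcrg-C4 in 23. At 163, 168 and 163 CPM their log2 ratios were 5.92, 5.50 and 5.51. The V segment Trgv2 was in 18 cells (36.7% against 0.345%). The 3 constant genes are similar in sequence, and how the counting shared reads among them was not tested. In all, 32 cells held a γ constant transcript, and 30 of these also held Trac, the α constant gene. Of the 7 cells with Trav11, 5 held a γ constant transcript.

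Of the αβ constant genes, Trac was in 46 of 49 cells, with a median of 6 UMIs, Trbc1 in 32, and Trbc2 in all 49, with 5 to 49 UMIs. Of 10 γδ markers other than Trdc 4 were at 0 in the gated control cells, the δ segments Trdv1 and Trdv4, the γ segment Tcrg-V6 and Sox13. The summed level of the list was 271 CPM against 6.40, and its 3 measured members passed only through the gated cells. The γ segments Tcrg-V1 and Tcrg-V4 were each in 3 of 49 cells (6.12%), against 0.126% and 0.0941% of Zbtb16-zero cells. In the 55 CKO cells with Zbtb16 and Trdc, 29 held Trac (52.7%, 38.8 to 66.3), 51 Tcrg-C1 (92.7%) and 23 Trdv4. Trbc2 was in 54 of these 55 cells and Trbc1 in 43, so the β constant genes did not tell them from the gated cells. Whether some gated cells carry an unseen δ chain was not tested beyond these values.

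Marker lists of other cell types gave mixed values, and the part of such cells in the results was not tested. Of 11 B cell markers other than Cd79a, 6 were at 0 in the gated control cells, including Ms4a1 and Pax5, and their summed level was 191 CPM against 229 in Zbtb16-zero cells, most of it Ighm. Of 11 NK and innate lymphoid markers 5 were at 0, including Ncr1 and Eomes, with 178 CPM against 80.6, of which Cd7 and Klrb1c gave the most. Of 11 myeloid markers 8 were at 0, including Lyz2 and Csf1r, with 98.8 against 77.5 CPM, nearly all Cst3. All 8 erythroid and platelet markers were at 0. Of 4 CD8 T cell markers other than Cd8b1, Crtam and Eomes were at 0 and Cd8a had 1 UMI, and the list's 174 against 44.7 CPM was nearly all Ly6c2 (log2 2.52, and 0.57 beside Zbtb16-zero cells with Cd44). Of 9 dendritic cell markers 6 were at 0, with 284 against 129 CPM, nearly all Ccr9 and Bst2. Regulatory T cell markers other than Foxp3 summed to 329 against 264 CPM, with Ikzf2 and Il2ra higher and Ctla4 and Tnfrsf4 lower.

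The 49 cells varied among themselves. NKT1-type genes (Tbx21, Klrb1c, Klrd1 or Xcl1) were seen in 31 cells and NKT2-type genes (Il4 or Il17rb) in 24. Both were seen in 12 cells, neither in 6. Cells with Tbx21 more often held Ly6c2, 9 of 11 against 7 of 38 without Tbx21, and Il2rb, 10 of 11 against 23 of 38. All 15 cells with Il17rb held Lmo4, 13 held Gata3 (86.7%, against 18 of the other 34), and 7 held Nkg7 (against 23 of 34). All 24 cells with Tcrg-C1 held Lmo4 (17 of the other 25) and 11 held Nkg7 (19 of 25). All 12 cells with Klrb1c held Nkg7 and Cxcr6. Plac8 was in 6 of the 7 Trav11 cells and Ccr9 in 4. Cells with Il17rb or Tcrg-C1 were deeper (medians 11058 and 10650 UMIs) than those without (7500 and 6972), and the part of depth in their splits was not tested. The splits were made after their values were seen.

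The 22 cells with 1 Zbtb16 UMI and the 27 with 2 or more are compared as a description, since the rule used this value. Icos was in 12 and 24 of them, and Gata3 in 10 and 21, but their levels were close, 300 and 365 CPM for Icos and 144 and 174 CPM for Gata3. The cells with 2 or more were deeper, with a median of 10478 UMIs against 7342. Nkg7 stood at 713 CPM in the cells with 1 UMI and 224 CPM in those with 2 or more, and Klrb1c at 120 and 16.8 CPM. Il4 stood at 17.97 and 50.3 CPM. Tbx21 was in 5 of 22 and 6 of 27 cells and Ly6c2 in 7 and 9, with similar shares in both sets.

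**Figure D4:**
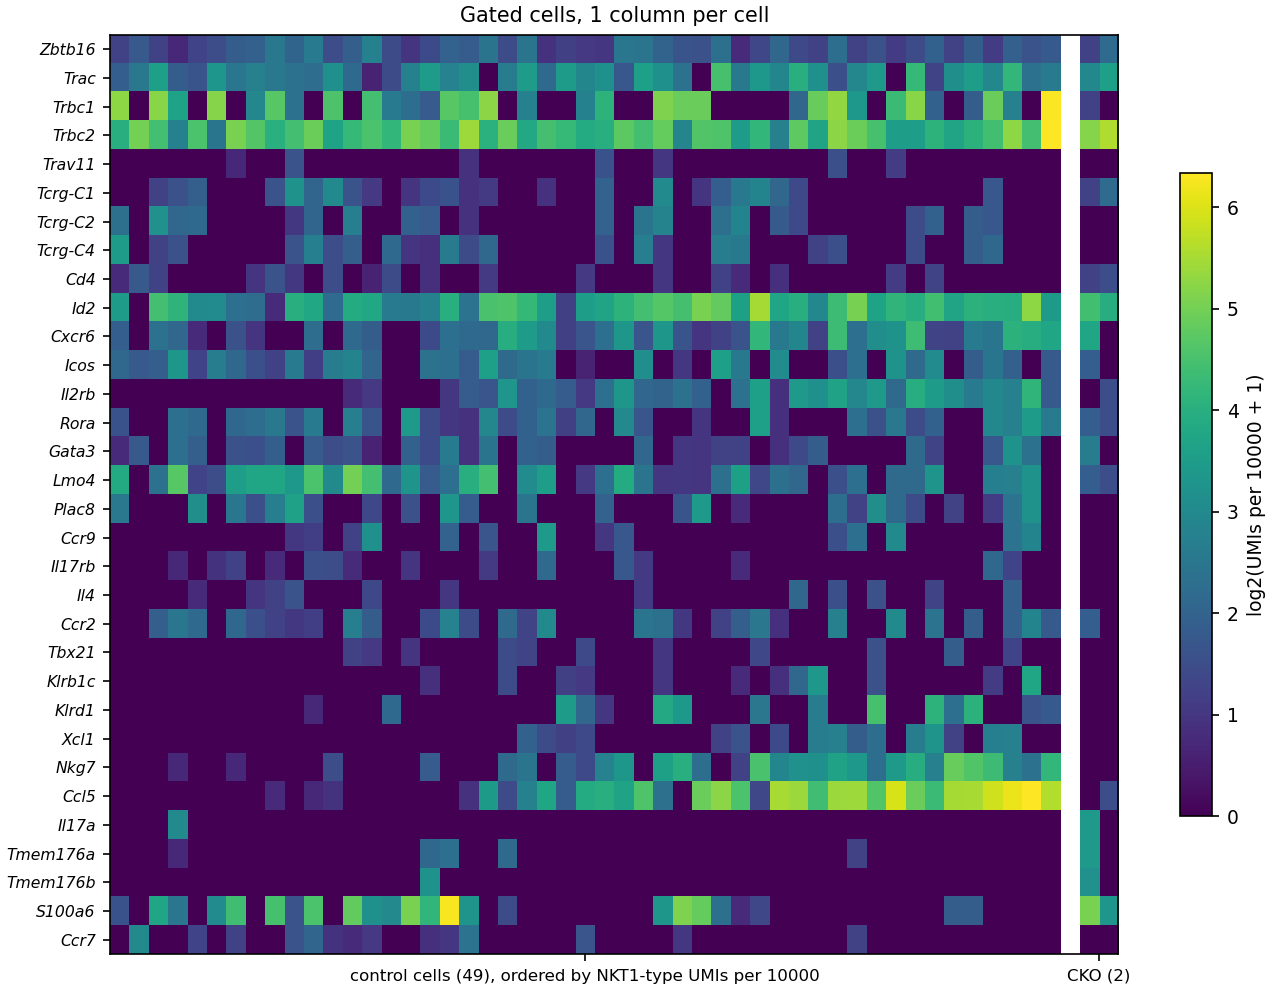
Each column is 1 gated cell and each row a gene, coloured by log2(UMIs per 10000 + 1), with the 49 control cells ordered by their summed NKT1-type UMIs per 10000 and the 2 Prmt5 CKO cells at the right. Id2 and Trbc2 run across nearly all columns (48 and 49 control cells), and Il17a with both Tmem176 genes stands out in the first CKO cell. Ccl5 and Nkg7 fill the right side of the control cells, which follows from the order, since both are NKT1-type genes.

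The cells also lay together when the gate genes were not used. In a clustering of both libraries on 2000 variable genes without the 8 gate genes, 43 of the 49 control cells (87.8%) and both CKO cells fell into 1 of 17 clusters, whose leading genes were S100a4, Maf, S100a6, Cxcr3, Itgb1, Cxcr6, Ccr2 and Rora. That cluster held 528 control cells (7.87% of kept cells) and 222 CKO cells (2.898%), a ratio of 0.368 (0.314 to 0.432), so most of its cells were not gated. The libraries were not aligned before clustering, and another cluster held 1293 CKO and 43 control cells. How far the ratio reflects cells split by library was not tested. In the cluster with most gated cells, Il4 was in 11 of 43 gated and 16 of 341 Zbtb16-zero control cells. Il17rb was in 14 and 4, so inside the cluster Il17rb was nearly absent from Zbtb16-zero cells. Cxcr6 was in 39 of 43 and 71 of 341. Among the 15 nearest neighbours of each control gated cell a median of 4 were gated themselves (0 to 10), and 39 of 49 cells had 3 or more, against 1.66% of Zbtb16-zero cells. Of the 55 CKO cells with Zbtb16 and Trdc, 37 were in another cluster, led by Cd163l1, Il17a, Tmem176a and Tmem176b, where 2 of the control gated cells also lay.

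Cells with transcripts that the gate did not use were then counted over each whole library. Il4, Il17rb, Cxcr6 and Ccr10 were among the 15 genes highest in the control gated cells. Their counts over the libraries are therefore a description and no separate support. Trav11 was in 16 of 6712 control cells (0.238%, 0.136 to 0.387) and in 0 of 7660 CKO cells, which allows a share of cells with a UMI of up to 0.0392% by the floor of 3 cells and 0.0482% by the exact interval. Of the 16 cells, 8 held Zbtb16, 7 were gated and 5 were Zbtb16-zero cells of the gate. Any Trav segment was in 24.0% of control and 20.8% of CKO Zbtb16-zero cells, so V segments as a whole were seen in both libraries. Trav1, the V segment of the MAIT cell α chain, was in 6 control and 9 CKO cells (ratio 1.31, 0.418 to 4.49).

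Il4 was in 40 control cells (0.596%) and 5 CKO cells (0.0653%), a ratio of 0.1095 (0.0337 to 0.2775). Of the control cells 15 held Zbtb16 and 12 were gated. Of the CKO cells 3 held Trdc and 0 were gated. Il17rb was in 50 control and 25 CKO cells, a ratio of 0.438 (0.260 to 0.722), with 15 and 0 gated. Zbtb16 was in 21 and 2 of them. Most control cells with Il4 or Il17rb thus lay outside the gate, so these ratios do not count NKT-like cells alone. Klrb1c (ratio 0.770, 0.590 to 1.004), Xcl1 (0.839, 0.701 to 1.003) and Cxcr6 (0.867, 0.775 to 0.969) differed much less. Tmem176b went the other way, with 144 control and 345 CKO cells (2.10, 1.72 to 2.57), 163 of the latter with Trdc.

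**Figure D5:**
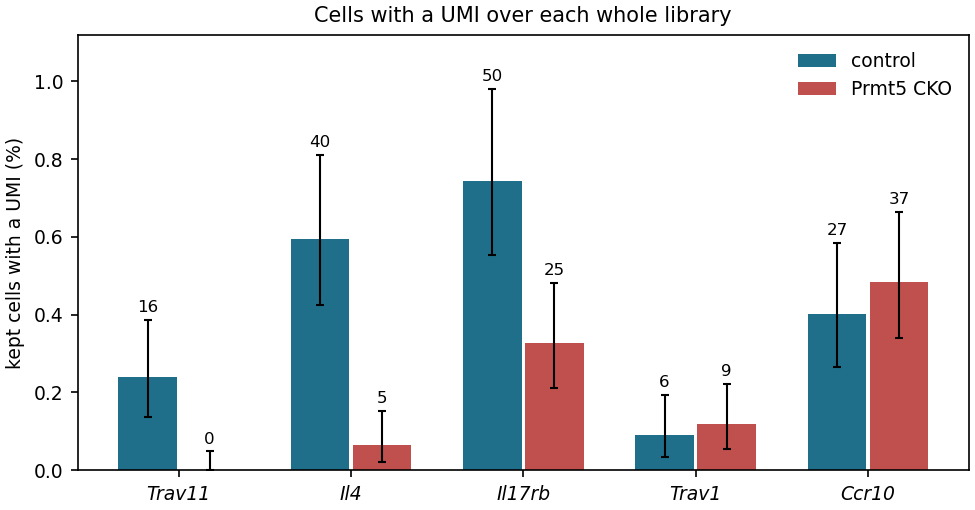
Percent of all kept cells with at least 1 UMI of Trav11, Il4, Il17rb, Trav1 and Ccr10 in each library, with exact 95% binomial intervals and the number of cells above each bar. Trav11 was in 16 control and 0 CKO cells and Il4 in 40 and 5, while Trav1 (6 and 9) and Ccr10 (27 and 37) were similar or higher in the CKO library.

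The 2 CKO cells are given singly. The first held 7331 UMIs, with 1 Zbtb16, 1 Cd4, 5 Trac and 26 Trbc2 UMIs. It also held 7 Il17a, 7 Tmem176a and 6 Tmem176b UMIs, beside 9 Cxcr6, 15 Id2 and 4 Ifng UMIs. The second held 5514 UMIs, with 2 Zbtb16, 1 Cd4, 6 Trac and 26 Trbc2 UMIs, and showed 8 Id2, 1 Il2rb and 1 Tcrg-V4 UMIs, but 0 Cxcr6, Icos, Cd44 and Il17a. Both held Tcrg-C1 (1 and 2 UMIs), and both had 0 UMIs of Trav11, Klrb1c, Xcl1, Il4, Il17rb and Tbx21. Of the given markers other than Zbtb16, the first held Tmem176a and Tmem176b, and the second held none.

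Genes that differed from the Zbtb16-zero cells in the same direction in both libraries were few to choose from, since 112 genes reached 10 UMIs at the size of the CKO sum. The highest by the smaller of both ratios were S100a6 (log2 3.60 in control, 5.15 in CKO), Id2 (2.91 and 3.48), Lgals1 (2.71 and 2.63), S100a4 (2.03 and 4.59) and S100a10 (1.42 and 2.67). Lsp1 (1.19 and 2.06), Hmgb2 (1.10 and 2.003) and Srgn (1.01 and 1.08) came next, with Tagln2, Laptm5, Arpc3, Ly6a, Sept1, Sh3bgrl3 and Arpc1b below 1 in control. Apart from Sh3bgrl3, these higher genes reached 10 UMIs in the CKO library only through the 2 gated cells. They had to be higher there, so their CKO ratios are a description. Of the 29 S100a6 UMIs in the CKO cells, 24 lay in the first cell. Klf2, a factor of quiescent circulating T cells, was the lowest (-1.57 and -1.27), followed by Npm1 (-0.52 and -1.19). The other 8, Rack1, Malat1, Eif1, Tpt1, Zfp36l2, Limd2, Ddx5 and Eef1b2, were within 0.57 of 0 in control.

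Set beside the control gated cells, the 2 CKO cells gave ratios that rest on a handful of UMIs. The genes named were picked for an interval off 0 among 2946 eligible genes, so these intervals describe and support nothing. S100a4 was at 23 UMIs against 107 in the 49 control cells (1791 and 230 CPM, log2 2.96, 2.24 to 3.62), but 22 of the 23 lay in the first cell. Itga4, the α4 integrin, had 4 and 3 UMIs in the 2 cells against 16 in all control cells (log2 3.99, 2.46 to 5.35). The other 8 highest, Dpf2, Larp4b, Bbx, Kin, Pld3, March2, Pkn2 and Rnps1, had 4 or 5 UMIs. Ccl5 had 1 UMI against 639 (77.9 and 1373 CPM, log2 -4.14, -9.45 to -1.66), and 16 of the 49 control cells also had 0. Ly6e, an interferon-induced surface protein, had 5 against 816 (log2 -2.17, -3.80 to -0.94), and Lmo4 had 3 against 393 (log2 -1.85, -4.14 to -0.30). Dusp2, AW112010 and Eef1b2 followed with log2 ratios of -1.47 to -0.90. Nkg7, Jun, Vps37b and Cebpb had 0 UMIs, at least 1.71-fold, 1.71-fold, 1.56-fold and 1.30-fold lower against a floor of 3 UMIs over both cells. The exact intervals end nearer to 0, at log2 -0.46 for Nkg7 and Jun, -0.33 for Vps37b and -0.06 for Cebpb. Vps37b was also lower in the CKO than in the control Zbtb16-zero cells (log2 -0.90).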

How the data were processed

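The deposited matrices hold counts, whole numbers of UMIs per gene and barcode, made with Cell Ranger 3.1.0 per the file headers. CASAVA 1.8, Seurat 2.3.4 and mm10 appear in the submitters' processing notes with no role stated. The libraries held 7896 (CKO) and 7407 (control) barcodes with medians of 5966 and 6054 UMIs. GENCODE vM21 placed 30766 of 30905 gene identifiers.

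Cells were gated and UMIs summed per library in Python 3.11.15 (numpy 2.4.6, scipy 1.17.1). Intervals are exact: Clopper-Pearson for shares, Poisson for UMIs and conditional binomial for ratios, at 95%. A count of 0 was given a floor of 3. Clustering used scanpy 1.11.5 (2000 variable genes, 30 components, 15 neighbours, Leiden resolution 1, seed 1). It left out the gate genes and receptor, immunoglobulin, mitochondrial and ribosomal protein genes, and did not align the libraries. Ratios and intervals were tried on simulated Poisson sums without cells, which cannot show how they behave where UMIs gather in few cells.

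Named genes were the 15 highest and 10 lowest log2 ratios, in both libraries and, as an addition, in the control library, and the 10 highest and 10 lowest ratios of CKO over control with 20 UMIs in both sums together and an interval off 0. Up to 4 members per list with the most UMIs were open to naming too, and other list members named were chosen after their values were seen. Receptor, immunoglobulin, mitochondrial, ribosomal, sex-linked and predicted genes were left out of rankings. Some genes these rules would name are not reported here. The cells and lists were chosen with earlier results of these data known.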

Additional observations from a re-analysis of the deposited data

How the results depend on the processing

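The ratio of the gated share, 0.0358, stayed below 1 in all 14 alternatives. It moved outside its counting interval with Cd3e and Zbtb16 alone (0.668), with Trdc not excluded (0.661), with thinning to 1000 UMIs (0.204) and among cells with a Y-linked UMI (0). The number of genes at least 2-fold higher in gated control cells was 480, from 327 to 521 with means per cell, without each gene's top cell or with at least 2 Zbtb16 UMIs, and 280 beside Zbtb16-zero cells that hold Cd44, a comparison added after seeing the data. In that comparison 32 of 43 log2 ratios of single genes moved and 0 changed sign. Of the ratios of CKO over control, Lmo4 changed sign under the stricter cell filter, to 0.51, where 1 CKO cell is left. In 8 cases over 4 genes with 0 CKO UMIs no bound was left. Thinning to 2000 UMIs moved 39 of 74 shares. Dividing by the gate without its Zbtb16 step gave 0.0344. No paired analysis was possible because each group is 1 library. Depth limits the CKO side to 12845 UMIs.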
